A study of Rattus norvegicus with 20 samples.

Results

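The 5 microRNAs (miRNAs) rno-miR-29a-3p, rno-miR-29b-3p, rno-miR-29c-3p, rno-miR-148b-3p and rno-miR-152-3p were read out in meiotic and post-meiotic male germ cells of rats. They were chosen by name, as mature miRNAs known to repress DNA methyltransferases, out of 677 rat miRNAs on the array. All 5 passed the detection filter, among 217 miRNAs that did. The filter asked for detection on every array of at least 1 group, and rno-miR-152-3p passed it only through the round spermatid groups, where it is high.

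The series holds 20 one-colour Agilent arrays, 5 per group, from Sprague-Dawley male rats. Rats were gavaged with cyclophosphamide (an alkylating anticancer and immunosuppressive drug, written CPA below) at 6 mg/kg or with saline, on 6 days a week over 4 weeks. The groups were saline pachytene spermatocytes, CPA pachytene spermatocytes, saline round spermatids and CPA round spermatids. Cells were enriched by sedimentation at unit gravity (STA-PUT), a separation by cell size, so other cells of the testis may be present in a fraction. The labels give a rat number for each array, taken here as marking separate animals within a group, and no age. Group CPA pachytene has 2 rats numbered 16, told apart by a year and called the earlier and the later rat 16. Each array belongs to 1 of 3 slides. Slides 1 and 2 carry all pachytene arrays and 6 round spermatid arrays, and slide 3 carries 4 round spermatid arrays only.

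MiRNAs pair through their seed, bases 2 to 8 from the 5′ end, with messages that they then repress. The miR-29 family is known from mammalian cells to target Dnmt3a and Dnmt3b, the enzymes that place new DNA methylation, as well as many messages of the extracellular matrix. The miR-148/miR-152 family is known to target Dnmt1, which copies methylation onto newly made DNA strands. In the male germ line, de novo methylation is placed mainly before birth, and pachytene spermatocytes and round spermatids are later stages. No message or methylation was measured on these arrays.

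The mature sequences are shown because each family is defined by its seed and because members within a family differ by a few bases that a probe has to tell apart. RefSeq's table (build GRCr8) held the sequence of all 5. The seed is in capitals.
rno-miR-29a-3p: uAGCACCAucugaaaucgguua
rno-miR-29b-3p: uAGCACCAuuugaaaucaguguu
rno-miR-29c-3p: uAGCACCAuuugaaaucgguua
rno-miR-148b-3p: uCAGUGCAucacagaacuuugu
rno-miR-152-3p: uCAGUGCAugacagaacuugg

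With positions counted from 1 at the 5′ end, rno-miR-29a-3p and rno-miR-29c-3p differ at 1 base, C10U. Between rno-miR-29a-3p and rno-miR-29b-3p there are 4 differences over 22 aligned bases (C10U, G18A, U21G and A22U). Between rno-miR-148b-3p and rno-miR-152-3p there are 2 over 21 bases, C10G and U20G. Cross-hybridisation between probes of such near-identical miRNAs was not tested, so the values of rno-miR-29a-3p and rno-miR-29c-3p in particular are uncertain to that extent. Among the 607 array miRNAs with a RefSeq sequence, the miR-29 seed was held by the 3 miR-29 members alone and the miR-148/miR-152 seed by the 2 miR-148/miR-152 members alone. rno-miR-148a-3p, the other member of that family in RefSeq, is not on this array.

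In RefSeq the miR-29 genes lie in 2 pairs. Mir29a neighbours Mir29b1 on chromosome 4, and Mir29b2 neighbours Mir29c on chromosome 13, with both members of a pair on the same strand. rno-miR-29b-3p can therefore come from either pair. Mir148b lies within the span of Copz1 on chromosome 7 and Mir152 within that of Copz2 on chromosome 10, genes for coatomer subunits of the vesicle coat.

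Levels are log2 signal after each array was scaled to the 75th percentile of its reliably measured spots. A floor of 3.61 was set, and signals under it have no order. Signals of different miRNAs come from different probes and are not compared in size. Differences below are differences of log2 signal between groups, so 1 means a fold of 2.

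The miR-29 members, known to target the de novo methyltransferases, were read well above background on every array. For rno-miR-29a-3p, saline pachytene arrays read 9.80 (rat 13), 9.89 (16), 9.59 (25), 9.65 (26) and 9.65 (28), with a mean of 9.72 ± 0.12 (SD, n = 5). CPA pachytene arrays read 9.74 (rat 7), 9.85 (15), 9.62 (earlier 16), 9.64 (later 16) and 9.68 (29), with a mean of 9.70 ± 0.09. Saline round spermatids read 10.45 (rat 15), 9.80 (16), 10.32 (17), 10.20 (25) and 10.33 (28), with a mean of 10.22 ± 0.25. The round spermatids were higher than pachytene cells on 4 of these 5 arrays, while saline rat 16 fell inside the pachytene range.

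CPA round spermatids read 10.20 (rat 14), 10.44 (15), 10.27 (16), 10.12 (25) and 10.29 (26), with a mean of 10.26 ± 0.12. All 5 lay above every pachytene array.

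For rno-miR-29b-3p, saline pachytene arrays read 9.01 (rat 13), 9.08 (16), 8.95 (25), 8.79 (26) and 8.84 (28), with a mean of 8.93 ± 0.12. CPA pachytene arrays read 9.02 (rat 7), 9.08 (15), 8.78 (earlier 16), 8.78 (later 16) and 8.90 (29), with a mean of 8.91 ± 0.14. The pachytene ranges of the treatments overlapped almost wholly. Saline round spermatids read 9.58 (rat 15), 8.51 (16), 9.59 (17), 9.10 (25) and 9.43 (28), with a mean of 9.24 ± 0.45. CPA round spermatids read 9.40 (rat 14), 9.65 (15), 9.41 (16), 9.27 (25) and 9.52 (26), with a mean of 9.45 ± 0.14. In saline, rat 16 read below every pachytene array, and the other 4 round spermatid arrays read above all pachytene arrays. In CPA no round spermatid array overlapped the pachytene arrays.

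For rno-miR-29c-3p, saline pachytene arrays read 7.86 (rat 13), 7.78 (16), 8.15 (25), 8.10 (26) and 8.08 (28), with a mean of 7.99 ± 0.16. CPA pachytene arrays read 7.91 (rat 7), 7.88 (15), 8.04 (earlier 16), 8.10 (later 16) and 8.08 (29), with a mean of 8.001 ± 0.10. The CPA values lay inside the saline range. Saline round spermatids read 8.29 (rat 15), 8.10 (16), 8.58 (17), 8.36 (25) and 8.48 (28), with a mean of 8.36 ± 0.18. CPA round spermatids read 8.13 (rat 14), 8.35 (15), 8.17 (16), 8.47 (25) and 8.35 (26), with a mean of 8.29 ± 0.14. Saline rat 16 again read lowest of its group, and it and CPA rat 14 (8.13) lay inside the pachytene range.

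The miR-148/miR-152 members, known to target Dnmt1, gave signals nearer the floor. For rno-miR-148b-3p, saline pachytene arrays read 5.13 (rat 13), 5.04 (16), 5.12 (25), 4.92 (26) and 4.92 (28), with a mean of 5.03 ± 0.10. CPA pachytene arrays read 4.96 (rat 7), 5.12 (15), 4.94 (earlier 16), 4.98 (later 16) and 5.11 (29), with a mean of 5.02 ± 0.08. These groups overlapped. Saline round spermatids read 5.41 (rat 15), 4.82 (16), 5.44 (17), 5.11 (25) and 5.24 (28), with a mean of 5.20 ± 0.25. CPA round spermatids read 5.24 (rat 14), 5.46 (15), 5.20 (16), 4.88 (25) and 5.45 (26), with a mean of 5.25 ± 0.23. The lowest array of each round spermatid group, saline rat 16 and CPA rat 25, read below every pachytene array. They are the only round spermatid arrays on slide 2.

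rno-miR-152-3p was at the floor on all 10 pachytene arrays. Before the floor was applied, its scaled signal there lay between 6.57 and 10.03, against a floor of 12.17. In saline pachytene cells 18 of 50 spots, on 2 arrays, were well above background, and in CPA pachytene cells 10 of 50, on 3 arrays. Feature Extraction, the scanner software, called it detected on 4 of 5 saline and 3 of 5 CPA pachytene arrays, so its reading there was near the detection limit.

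In round spermatids every array read it above the floor. Saline arrays read 5.04 (rat 15), 4.65 (16), 4.50 (17), 5.32 (25) and 4.82 (28), with a mean of 4.87 ± 0.32. CPA arrays read 5.12 (rat 14), 4.80 (15), 5.05 (16), 4.98 (25) and 4.00 (26), with a mean of 4.79 ± 0.46. No round spermatid array overlapped a pachytene array, and CPA rat 26 was the lowest of the 10.

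**Figure D1:**
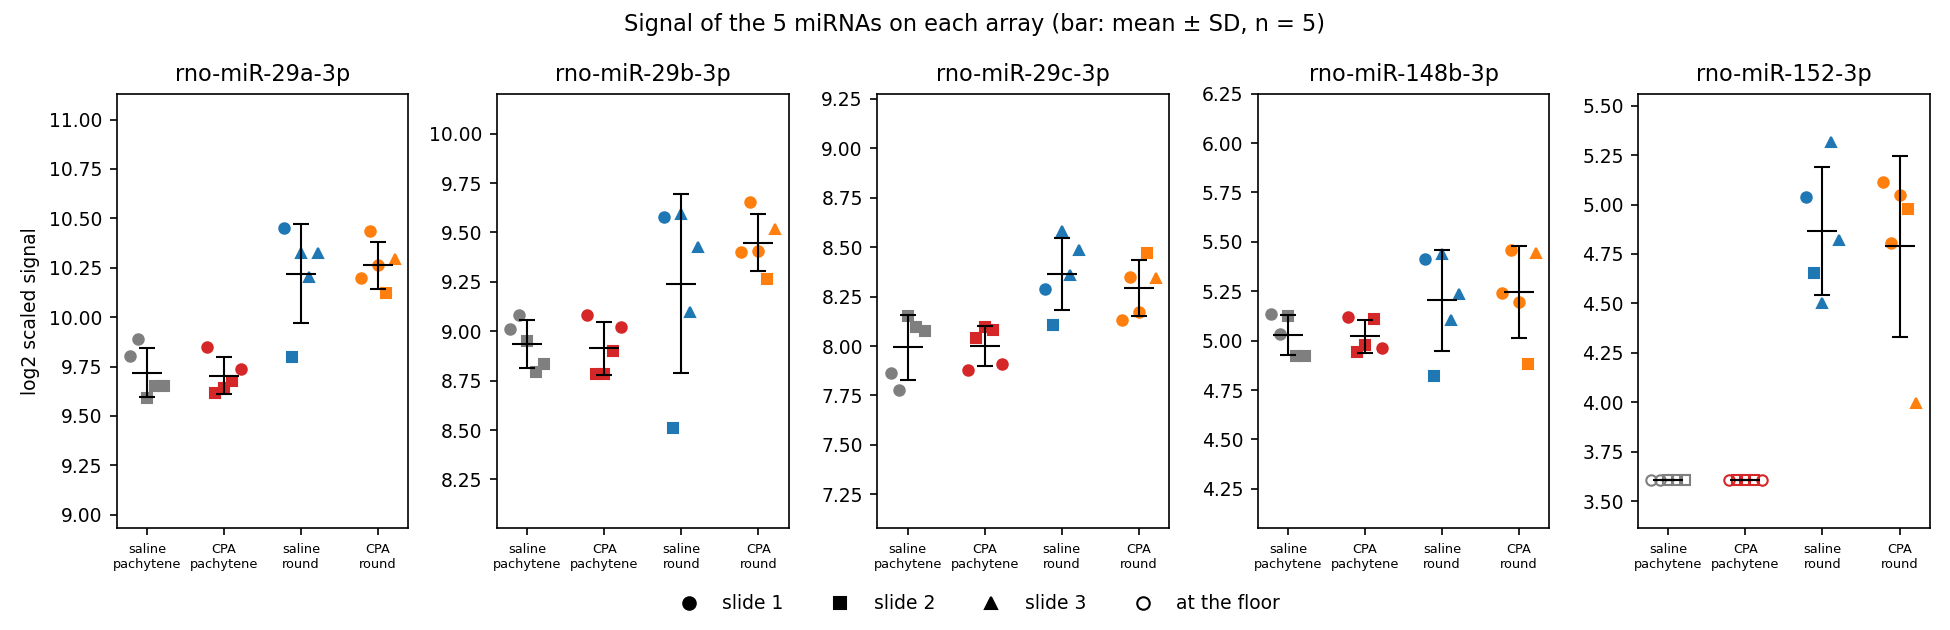
Log2 scaled signal of each miRNA on every array, by group, with slide as the symbol, open symbols at the floor and bars for the mean ± SD of 5 arrays. All panels span the same range of log2 units. rno-miR-152-3p sits at 3.61 on all 10 pachytene arrays and between 4.00 and 5.32 in round spermatids, and saline round spermatid rat 16 (8.51 for rno-miR-29b-3p) stands below its group in the 3 panels of rno-miR-29a-3p, rno-miR-29b-3p and rno-miR-148b-3p.

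Round spermatids were compared with pachytene spermatocytes within each treatment, to ask how these miRNAs differ across meiosis. Of the 4 members detected on all 20 arrays, rno-miR-29a-3p and rno-miR-29c-3p were higher in round spermatids in saline rats (2 of 4), and these and rno-miR-29b-3p in CPA rats (3 of 4). None was lower. rno-miR-148b-3p passed the test in neither treatment. rno-miR-152-3p is left out of these counts, since it entered the test through round spermatids alone and its place there fixed the direction. The background was large: 47.5% of the 217 miRNAs tested differed in saline (25.8% higher, 21.7% lower) and 51.6% in CPA (29% higher, 22.6% lower). Over the 158 miRNAs detected on all 20 arrays the shares called in either direction were 50% and 53.8%. Of these 158, 45 were higher and 34 lower in saline, and 51 higher and 34 lower in CPA. The counts among 4 have to be read against those values. In such bulk samples fewer cells of a type and less RNA per cell cannot be told apart. The median difference of the 4 was 0.34 in saline and 0.41 in CPA, beside 0.03 and 0.11 over those 158.

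In limma's fit over the 4 groups with Benjamini-Hochberg adjustment over 217 miRNAs, rno-miR-29a-3p was higher in saline round spermatids by 0.50 ± 0.10 (SE; 1.42-fold, 95% interval 1.22 to 1.64; adjusted p = 3.6e-04). In CPA rats the difference was 0.56 ± 0.10 (adjusted p = 1.2e-04). Its call was thus the same in both treatments. rno-miR-29c-3p was higher by 0.37 ± 0.09 in saline (1.29-fold; adjusted p = 0.0034) and by 0.29 ± 0.09 in CPA (1.23-fold; adjusted p = 0.015). These differences exceeded the SDs within groups, which were 0.10 to 0.18.

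rno-miR-29b-3p was higher in CPA round spermatids by 0.54 ± 0.16 (1.45-fold; limma adjusted p = 0.0084). In saline its value was 0.31 ± 0.16 (limma adjusted p = 0.12), with an interval of -0.02 to 0.64. The saline value rested on rat 16: without that array it was 0.49, with an adjusted p of 8.3e-04. The difference between the treatments in this contrast, 0.23 with an interval of -0.24 to 0.69, did not pass the test (adjusted p = 1 in limma's fit).

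rno-miR-148b-3p differed by 0.18 ± 0.12 in saline (interval -0.07 to 0.42; limma adjusted p = 0.23) and by 0.22 ± 0.12 in CPA (interval -0.02 to 0.47; limma adjusted p = 0.11). Here too 1 array decided the call. Without saline rat 16 the saline value was 0.27 (limma adjusted p = 0.038), and without CPA rat 25 the CPA value was 0.31 (limma adjusted p = 0.021).

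For rno-miR-152-3p the values are a description with no test and no fold. Its mean log2 signal stood above the floor by 1.26 in saline and by 1.18 in CPA round spermatids, and its pachytene values were all at that floor. With a floor 2 times lower the differences were 1.84 and 1.89, and with one 2 times higher they were 0.28 and 0.30. The unfloored scaled signals averaged 8.24 in saline pachytene and 29.8 in saline round spermatids, and 7.50 and 28.6 in CPA.

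**Figure D2:**
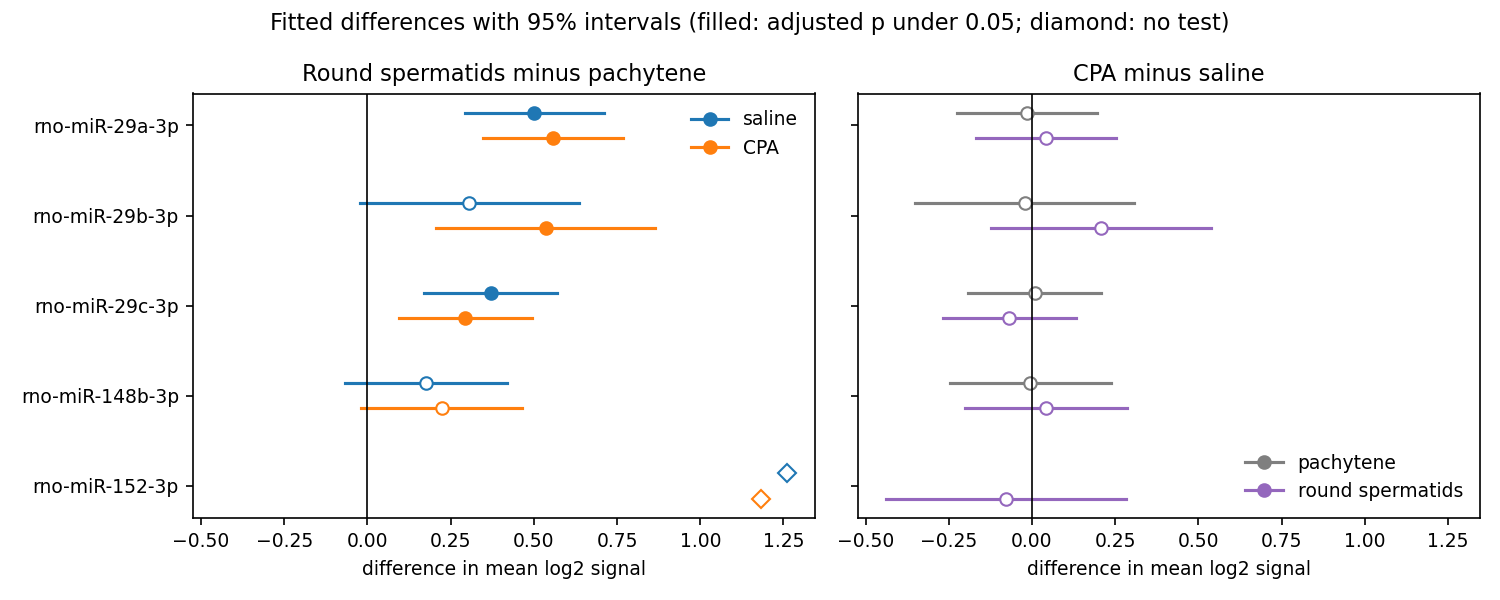
Fitted differences in mean log2 signal with 95% intervals, for round spermatids minus pachytene (left) and CPA minus saline (right), on 1 common axis; filled points have an adjusted p under 0.05, and open diamonds are values over the floor with no test. On the left, the 4 members detected on all arrays lie between 0.18 and 0.56; on the right all 9 intervals include 0, and rno-miR-152-3p is not drawn for pachytene cells, where it was at the floor.

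Each member has a second probe on the array. The dimmer probes of rno-miR-29a-3p gave 0.50 in saline and 0.53 in CPA, those of rno-miR-29b-3p 0.24 and 0.41, those of rno-miR-29c-3p 0.39 and 0.34, and those of rno-miR-148b-3p 0.16 and 0.15. All 8 values had the direction of the brighter probe. The dimmer probe of rno-miR-152-3p was at the floor on all 20 arrays, so a single probe carries its values.

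The scaling bears on the miR-29 values. With no scaling the median of all 217 miRNAs moved to -0.37 in saline and -0.23 in CPA, and rno-miR-29c-3p itself read lower, by -0.10 and -0.11, while rno-miR-29a-3p read 0.03 and 0.15, none of them passing limma's test. Relative to that median, rno-miR-29a-3p stood at 0.40 and 0.38 and rno-miR-29c-3p at 0.27 and 0.11. With the percentile taken over all miRNA spots, rno-miR-29a-3p was 0.25 in saline (limma adjusted p = 0.12) and 0.35 in CPA (limma adjusted p = 0.037). With normexp background correction rno-miR-29a-3p was 0.34 in saline (limma adjusted p = 0.19), where the median of all miRNAs was 0.39, and 0.58 in CPA (limma adjusted p = 0.015), where that median was -0.07. rno-miR-152-3p gave 0.99 and 0.94 with no scaling, and 0.69 and 0.16 with normexp.

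The scale of an array cancels in the difference of 2 members that are both above the floor, so it does not cancel in pairs with rno-miR-152-3p. All 10 pairs were compared in each treatment with exact two-sided permutation tests over 252 splits, adjusted over 20 comparisons. The smallest p possible is 0.0079, adjusted 0.023, and 3 of the 12 comparisons without rno-miR-152-3p reached it. The 20 include the pairs with rno-miR-152-3p, whose pachytene side was fixed at the floor. Their small p-values lower the adjusted values of the other pairs, so 0.023 is smaller than an adjustment over the 12 alone would give. Between pachytene cells and round spermatids, the change of rno-miR-29a-3p exceeded that of rno-miR-148b-3p by 0.33 in saline and by 0.33 in CPA. In CPA the change of rno-miR-29b-3p also exceeded that of rno-miR-148b-3p, by 0.31. With normexp 0 of the 12 passed, with the mean over all probes 3, and without saline round spermatid rat 17 there were 4. Without slide 3 there was 1, rno-miR-29a-3p against rno-miR-148b-3p in CPA (exact adjusted p = 0.032, again adjusted together with the pairs of rno-miR-152-3p). The saline pairs then had only 21 splits. Their smallest exact p was 0.048, adjusted 0.079, so no saline pair could pass and the lower count does not show a weaker difference.

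Within the miR-29 family no pair passed. The change of rno-miR-29a-3p exceeded that of rno-miR-29b-3p by 0.20 in saline (exact adjusted p = 0.15) and 0.02 in CPA (0.47), and that of rno-miR-29c-3p by 0.13 (0.47) and 0.26 (0.11). The value of rno-miR-152-3p over the floor exceeded the change of its seed partner rno-miR-148b-3p by 1.09 in saline and 0.96 in CPA, and that of rno-miR-29a-3p by 0.76 and 0.62, given with no test. With the mean over all probes, where the dimmer probe at the floor counts, the excess over rno-miR-29a-3p was 0.13 in saline and 0.05 in CPA.

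No difference between CPA and saline was detected for any of the 5. CPA was compared with saline in each cell type, the question that the drug exposure poses. No member, and 0% of all 217 miRNAs, passed limma's test in pachytene cells, in round spermatids or in the difference of those effects, which for rno-miR-152-3p can be tested in round spermatids only; at an unadjusted p under 0.05 there were 1, 4 and 1 miRNAs, none of them a member. In pachytene cells the values were -0.01 for rno-miR-29a-3p, -0.02 for rno-miR-29b-3p, 0.01 for rno-miR-29c-3p and -0.01 for rno-miR-148b-3p. The 95% intervals of those 4 lay within -0.35 and 0.31. For rno-miR-152-3p all pachytene arrays were at the floor, so no treatment value can be given there.

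In round spermatids the largest treatment value among the members was that of rno-miR-29b-3p, 0.21 ± 0.16 (interval -0.12 to 0.54; limma adjusted p = 0.81). The others were 0.04 for rno-miR-29a-3p (interval -0.17 to 0.25), -0.07 for rno-miR-29c-3p (-0.27 to 0.13), 0.04 for rno-miR-148b-3p (-0.20 to 0.29) and -0.08 for rno-miR-152-3p (-0.44 to 0.28). The last interval is too narrow, since the floored pachytene groups add no spread to the fit, and in a fit of the round spermatid groups alone its SE was 0.24 in place of 0.17. In the fit of all 4 groups the intervals allow changes of up to 1.45-fold for rno-miR-29b-3p and 1.19-fold for rno-miR-29a-3p. These bounds may be too tight, since that fit pools round spermatids with less variable pachytene groups. For rno-miR-29b-3p the saline and CPA SDs were 0.45 and 0.14 in round spermatids, beside 0.12 and 0.14 in pachytene cells. For rno-miR-148b-3p they were 0.25 and 0.23 beside 0.10 and 0.08. Single arrays turned some of these signs. Without saline rat 16 rno-miR-29a-3p was -0.06, and without CPA rat 26 rno-miR-152-3p was 0.12. Leaving out each array in turn, rno-miR-148b-3p also turned, with values of -0.05 to 0.13.

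Slide moved with the miR-29 values within pachytene cells. This comparison was chosen after the values were seen, and both treatments are on both slides. On the 4 arrays of slide 1 rno-miR-29a-3p read 9.74 to 9.89 and on the 6 of slide 2 it read 9.59 to 9.68. rno-miR-29b-3p read 9.01 to 9.08 on slide 1 and 8.78 to 8.95 on slide 2. rno-miR-29c-3p went the other way, 7.78 to 7.91 on slide 1 and 8.04 to 8.15 on slide 2. None of these 3 miRNAs overlapped between the slides. Exact two-sided permutation p-values over 210 splits were 0.0048, 0.0095 and 0.0048 (adjusted over 8 measures 0.0076, 0.013 and 0.0076). The values that prompted the comparison also gave these p-values, so all p-values for slide are descriptions. The share of all tested miRNAs that separate by slide was not counted, so the separation cannot be called particular to miR-29. The summed signal of miR-34b-5p, miR-34c-5p and miR-449a-5p did not overlap either, at 20198 to 23511 on slide 1 and 15022 to 17953 on slide 2.

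The within-array difference of rno-miR-29a-3p minus rno-miR-29c-3p, which no scaling can alter, was 1.83 to 2.12 on slide 1 and 1.44 to 1.60 on slide 2 (exact permutation p = 0.0048, the smallest possible; adjusted 0.0076). The dimmer probe of each gave 1.12 to 1.33 and 0.62 to 0.95. In round spermatids the same difference was 2.07 to 2.16 on the 4 arrays of slide 1, 1.65 to 1.69 on the 2 of slide 2 and 1.74 to 1.95 on the 4 of slide 3. Slide 1 exceeded slide 2 in this within-array difference by 0.41 in pachytene cells. Between cell types the same difference changed by less, 0.13 in saline and 0.26 in CPA. Taken alone, rno-miR-29a-3p differed between the slides by 0.18, beside cell type differences of 0.50 and 0.56. For rno-miR-29c-3p alone the slide difference was -0.23, beside cell type differences of 0.37 and 0.29. Whether slide stands for hybridisation, for the order of cell isolation or for the rats cannot be told apart here.

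**Figure D3:**
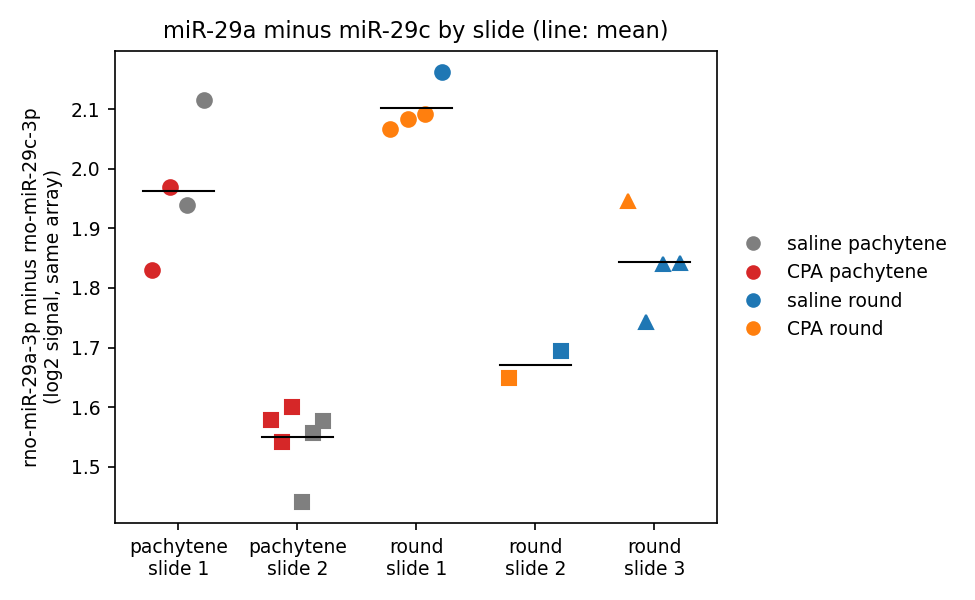
Log2 signal of rno-miR-29a-3p minus that of rno-miR-29c-3p on the same array, by cell type and slide; colours are the 4 groups and lines are means. The offset between probes has no meaning of its own, but its change does: slide 1 arrays lie at 1.83 to 2.16 and slide 2 arrays at 1.44 to 1.69 in both cell types.

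With slide as a block, the differences between round spermatids and pachytene cells in saline and CPA were 0.40 and 0.46 for rno-miR-29a-3p, and 0.28 and 0.31 for rno-miR-29c-3p, all passing limma's test, and 1.47 and 1.23 for rno-miR-152-3p, given with no test. Those of rno-miR-29b-3p were 0.11 (limma adjusted p = 0.54) and 0.38 (limma adjusted p = 0.017), and those of rno-miR-148b-3p were 0.03 and 0.12. Within slide 1, rno-miR-29a-3p gave 0.60 and 0.51, rno-miR-29c-3p 0.47 and 0.32, and rno-miR-152-3p 1.43 and 1.38. Within slide 2 the CPA values were 0.48, 0.40 and 1.37.

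In saline within slide 2 the values were 0.17, -0.0036 and 1.05, and that of rno-miR-29b-3p was -0.35, the saline round spermatid side being rat 16 alone. Without slide 3 the saline value of rno-miR-29c-3p was 0.20 and missed the test (limma adjusted p = 0.18). Saline rat 16 had the lowest 75th percentile of the 20 arrays before scaling, 140.7 against 176 to 571 on the others.

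Markers of other cells moved with the cell type contrast. Of 10 markers of mesenchymal, muscle and endothelial cells, 8 were tested and 6 were detected on all 20 arrays. Of those 6, 5 were higher in round spermatids in saline, and 5 were higher and 1 lower in CPA (median difference 1.72 and 1.76). Of these, miR-143-3p, known from smooth muscle, was higher by 1.81 in saline and 2.004 in CPA, and miR-199a-3p, known from mesenchymal cells, by 1.83 and 1.84, with limma adjusted p-values in saline of 3.4e-06 and 1.6e-05. The 1 lower in CPA was miR-126a-3p, at -0.83 (limma adjusted p = 0.037), with -0.73 in saline, short of the threshold. miR-126a-5p, also on the list, gave -0.39 and -0.08 and passed in neither, with all round spermatid arrays at the floor. miR-133b-3p, known from muscle, stood 1.59 above pachytene cells in saline, where 4 of 5 pachytene arrays were at the floor. The list's summed signal, in which miR-143-3p weighs most, was 599 to 1543 in pachytene arrays and 2030 to 3896 in round spermatid arrays. miR-133a-3p was detected on 0 pachytene arrays, and miR-1-3p on 0 of the CPA arrays of either cell type.

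Blood markers summed to 99.8 to 145 in pachytene and 171 to 240 in round spermatid arrays. Of these, miR-223-3p, a myeloid miRNA, was higher by 2.15 in saline (limma adjusted p = 6.1e-09) and 1.96 in CPA, and miR-144-3p, an erythroid miRNA, was detected on no array. miR-142-3p, of blood cells in general, gave 0.53 in saline, short of the threshold, and was higher by 0.76 in CPA (limma adjusted p = 0.0091). miR-150-5p, of lymphocytes, gave -0.24 and -0.40 and did not pass. Among germ cell markers miR-34b-5p was higher by 0.63 in saline (limma adjusted p = 0.011) and 0.85 in CPA (0.0011). miR-34c-5p gave 0.47 in saline, short of the threshold, and was higher by 0.73 in CPA (limma adjusted p = 0.0061), and miR-449a-5p passed in neither (-0.26 and -0.01). All 3 markers were detected on every array.

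Among the spermatogonial markers in saline and CPA, miR-222-3p gave -1.44 and -1.59 and miR-221-3p gave -1.64 and -1.71, with 4 and 2 of 5 round spermatid arrays at the floor in each treatment. miR-146a-5p gave 2.01 and 1.62 over pachytene arrays that were all at the floor. For Sertoli cells miR-202-3p was lower by -1.76 and -1.54, miR-212-3p passed in neither (0.02 and 0.41), and miR-132-3p gave 0.32 and 0.52 over pachytene arrays all at the floor. The part that these cells have in the differences of the 5 members was not tested.

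Across the 20 arrays, 10 of them at the floor for rno-miR-152-3p, its most similar miRNA was miR-199a-3p, a marker on the mesenchymal list (Pearson r = 0.99; 0.92 after group means were removed). The next were miR-26a-5p (0.98) and miR-195-5p (0.98), which are not on that list. Within the 10 round spermatid arrays, where it was above the floor, r with miR-199a-3p was 0.96, and r with the log2 summed signal of the mesenchymal list was 0.63. The values of r are descriptions: the arrays share groups and slides. CPA rat 26, lowest for rno-miR-152-3p, was also lowest of the 10 for miR-199a-3p (5.27, against 5.65 to 7.21) and for the mesenchymal sum (2030). The same r with the mesenchymal sum was -0.46 for rno-miR-29a-3p, -0.45 for rno-miR-29b-3p, -0.20 for rno-miR-29c-3p and -0.61 for rno-miR-148b-3p.

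**Figure D4:**
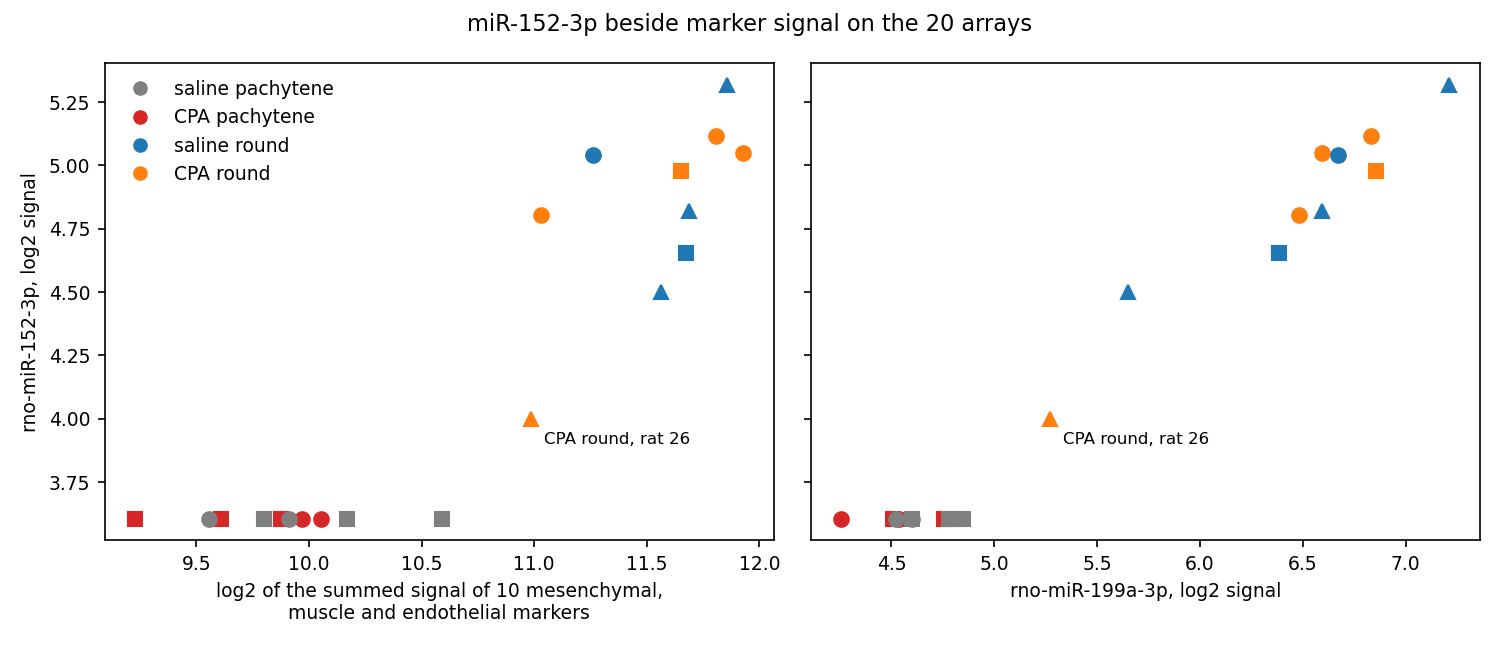
Log2 signal of rno-miR-152-3p on each array against the log2 summed signal of the 10 mesenchymal, muscle and endothelial markers (left) and against miR-199a-3p (right); colours are groups and symbols slides (circle 1, square 2, triangle 3). The 10 pachytene arrays lie along the floor at 3.61, and round spermatid arrays run from CPA rat 26 at 4.00 to saline rat 25 at 5.32. They rise closely with miR-199a-3p (r = 0.96) and loosely with the summed signal (r = 0.63), in which miR-143-3p weighs most. On the left, saline rat 15 reads 5.04 at a log2 sum of 11.26, and saline rat 17 reads 4.50 at 11.56.

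For rno-miR-29a-3p and rno-miR-29b-3p the most similar miRNAs included miR-34b-5p, a marker of meiotic and later germ cells. For rno-miR-29a-3p the highest r over 20 arrays were with miR-124-3p (0.96), miR-34b-5p (0.95) and miR-15b-5p (0.94), and for rno-miR-29b-3p with miR-34b-5p (0.94), miR-34c-5p (0.94) and miR-25-3p (0.91). With group means removed, these 6 values were 0.82 to 0.90. Slide was not removed. In pachytene cells rno-miR-29a-3p, rno-miR-29b-3p and the sum of miR-34b-5p, miR-34c-5p and miR-449a-5p all read higher on slide 1 than on slide 2. The part of slide in these r was not tested. rno-miR-29c-3p had lower values, with miR-7b (0.84), miR-101a-3p (0.82) and miR-30e-3p (0.81), and 0.53 to 0.61 with group means removed. rno-miR-148b-3p was nearest to miR-883-5p (0.87), miR-301a-3p (0.86) and miR-742-5p (0.86).

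Among the members themselves rno-miR-29a-3p and rno-miR-29b-3p had an r of 0.91, and 0.93 with group means removed. rno-miR-29a-3p and rno-miR-29c-3p had 0.68 and 0.03. The highest value across families was that of rno-miR-29b-3p with rno-miR-148b-3p, 0.88 and 0.85. The seed partners rno-miR-148b-3p and rno-miR-152-3p had 0.37, and -0.30 with group means removed. These 10 pairs share arrays, scaling and slides.

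The other arms of the same precursors were hardly seen. rno-miR-29a-5p, rno-miR-29b-1-5p, rno-miR-29b-2-5p, rno-miR-148b-5p and rno-miR-152-5p were detected on 0 of 20 arrays. rno-miR-29c-5p was detected on 1, saline pachytene rat 26, which had the most miRNAs detected of all arrays (281).

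A list of 20 other miRNAs reported to repress chromatin enzymes gave the members a frame. It is not separate from the marker lists. miR-143-3p, miR-126a-3p and miR-1-3p are also on the mesenchymal list, miR-132-3p and miR-212-3p on the Sertoli list, and miR-449a-5p among germ cell markers. Of the 20, 15 were tested and 14 detected on all 20 arrays. In saline 6 of the 14 were higher and 3 lower in round spermatids, and in CPA 6 were higher and 4 lower. Medians were 0.09 and 0.19. Those with the smallest p in saline were miR-34a-5p, known to target the deacetylase Sirt1, lower by -1.96 ± 0.19 (limma adjusted p = 2.4e-07), miR-140-3p, higher by 0.73 ± 0.08 (2.7e-07), and miR-124-3p, best known from neurons, higher by 1.45 ± 0.17 (8.5e-07). Their CPA values were -1.90, 0.74 and 1.53, and 3 pachytene arrays were at the floor for miR-124-3p. With treatment 0 of 15 passed in either cell type.

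Across all 20 arrays, Feature Extraction detected 181 to 281 of the 677 miRNAs per array, and 18.9% to 31.4% of miRNA spots were well above background. No miRNA spot was saturated. Precision is limited by the 5 arrays per group.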

How the data were processed

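Total RNA (100 ng per array, Cy3) was hybridised to 20 arrays. The deposited scanner files hold spot intensity on a linear scale, background-subtracted by Agilent Feature Extraction 11.5.1.1, per the file headers and the submitters' processing notes, and not scaled between arrays. The file of CPA round spermatid rat 14 holds that signal to 3 significant digits. The authors' deposited value table holds log2 values whose normalization is not given in the sources used here. Older names in it match rno-miR-148b-3p alone among the members (r = 0.82 with the scanner values), and it served as an alternative. Column medians run from -0.12 to 0.40, and its centring is unknown. Columns of other samples numbered 0.

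Outlier spots were left out, 0 to 9 of the members' spots per array. Each array was scaled by the 75th percentile of its signals, taken from 2176 spots that passed the background test everywhere. Spots of a probe were averaged, values under 12.17 (the median over arrays of the lowest signal well above background) were set to it, and log2 was taken. The probe brightest over all arrays stood for a miRNA. Tests covered the 217 miRNAs with full detection in 1 or more groups, using limma 3.58.1 (R 4.3.3), a single model of the 4 groups (16 residual degrees of freedom) and an adjusted p of 0.05. The steps were tested on simulated data. Sequences came from RefSeq tables (GRCr8), and figures from Python 3.11.15. The array design uses another build, so no coordinates are given.

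Named miRNAs are all members, their other arms, the 3 of each list with the smallest p for round spermatids against pachytene in saline, and the 3 most correlated with each member. miR-133a-3p, miR-1-3p, miR-144-3p, miR-126a-3p and miR-126a-5p were added after their values were seen. Members and lists were chosen with earlier results of these data known. The files lack the mean spot signal, so the planned normexp background correction used median spot signals.

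Equal rat numbers in both cell types of a treatment did not clearly mark shared deviations. Over 4 such pairs the correlation of deviations from group means was -0.29 to 0.16 (median 0.09). Over 46 other combinations of arrays its median was -0.01. The numbers were not taken as pairs, but so few pairs cannot exclude that equal numbers mark the same animal. CPA round spermatid rat 16, whose label has no year, was set in no pair, and gave 0.21 with the earlier and -0.11 with the later rat 16. p-values measure the spread between arrays, as far as rat numbers mark separate animals.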

Additional observations from a re-analysis of the deposited data

Results flagged for a closer look

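rno-miR-152-3p on the CPA round spermatid array of rat 26 read 4.00, far from the 4.80 of the nearest array in its group. The gap was above the critical value of Dixon's test for 5 arrays (0.71). Groups with any spread numbered 18 over the 5 miRNAs, and chance flags about 1 in 20. Without this array the CPA minus saline value of rno-miR-152-3p in round spermatids was 0.12 in place of -0.08, and neither passed limma's test.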

How the results depend on the processing

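Counts are of miRNAs past limma's adjusted threshold, in saline and then CPA where 2 are given for round spermatids minus pachytene. Over all miRNAs the counts of 103 and 112 became 27 and 39 with normexp, 54 and 72 within slide 1, and 17 and 17 in the authors' deposited table, where only 49 tested miRNAs matched by name, and 73 in CPA with no scaling. The split of calls (56 higher and 47 lower; 63 and 49) became 36 and 76, and 37 and 74, with the percentile over all spots, 40 and 61, and 48 and 61, with quantile normalization, 21 and 68, and 22 and 51, with no scaling, and 46 and 59 (saline) with total gene signal. Of the members 3 and 4 passed, counting rno-miR-152-3p, which has no test in the report; this became 0 and 2 with normexp, 1 and 2 with the percentile over all spots, 1 and 1 with no scaling, and 5 in saline with array weights. Of the 1 member that the names of the authors' deposited table match, 0 passed in saline and 0 in CPA. Leaving out each array in turn gave 3 to 5 and 4 to 5 members, again counting rno-miR-152-3p, with 5 in saline only without rat 16. Over all miRNAs the same refits called 95 to 113 in saline and 98 to 117 in CPA. The comparison of member changes gave 7 of 20 calls. Of these, 4 were with rno-miR-152-3p, whose pachytene side was fixed at the floor, and they are not read as tests. The 7 became 4 with the mean over all probes, 0 with normexp and 7 to 11 leaving out each array, again counting pairs with rno-miR-152-3p. For CPA minus saline, where 0 passed, within slide 2 in round spermatids 31 miRNAs and 4 members passed, and 28 and 4 for the difference of effects, and within slide 3 there was 1 miRNA; those fits rest on 1 array per treatment or 1 CPA array, assumed to vary like the others. The replicate block of rat number (consensus correlation 0.081) left 3 and 4 members called and changed no call among them.

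Signs turned as follows, and the cause was not tested. For round spermatids minus pachytene in saline, rno-miR-29b-3p was -0.17 and rno-miR-29c-3p -0.10 with no scaling, and rno-miR-29b-3p was -0.35 and rno-miR-29c-3p -0.0036 within slide 2; rno-miR-148b-3p was -0.072 with the percentile over all spots, -0.30 with no scaling and -0.17 within slide 2. In CPA rno-miR-29c-3p was -0.11 with no scaling, and rno-miR-148b-3p was -0.18 with no scaling, -0.014 with normexp and -0.13 within slide 2. For CPA minus saline in pachytene cells, rno-miR-29c-3p was -0.16 with no scaling and rno-miR-148b-3p 0.34 with normexp, where the median of all miRNAs was 0.32. In round spermatids rno-miR-29a-3p was -0.15 and rno-miR-29b-3p -0.093 within slide 1; rno-miR-29c-3p was 0.036 with slide as a block, 0.086 without slide 3 and 0.37 within slide 2; rno-miR-148b-3p was -0.18 with normexp, -0.11 within slide 1 and -0.093 with array weights; rno-miR-152-3p was 0.14 without slide 3, 0.32 within slide 2 and 0.10 with array weights. Leaving out each array gave -0.063 to 0.10 for rno-miR-29a-3p and -0.17 to 0.12 for rno-miR-152-3p. For the difference of effects rno-miR-29a-3p and rno-miR-29b-3p were both -0.10 within slide 1, rno-miR-29c-3p was 0.078 without slide 3 and 0.40 within slide 2, rno-miR-148b-3p was -0.52 with normexp and rno-miR-152-3p 0.32 within slide 2. A further 26 and, leaving out arrays, 28 uncalled treatment values changed sign by less than their standard error. Fits of only the 2 groups compared cannot give the difference of effects, and rno-miR-152-3p has no value where detection on all arrays was required. The normexp and slide 3 settings were chosen after seeing the data.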
